A study of Mus musculus with 19 samples.

Results

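The genes described here are 32 genes of synaptic vesicles and of the machinery that releases them, taken by symbol from the 22193 genes of the deposited tables. All 32 were found in both tables. Their levels were measured by RNA sequencing of whole cerebellum from C57BL/6 mice at postnatal day 60. There were 8 Olig1-Gnas libraries, from mice with a conditional knockout of Gsα by Olig1Cre, 8 hGFAP-Gnas libraries, with the same knockout by hGFAPCre, and 3 Ctrl libraries from wild type mice. Olig1Cre acts from the Olig1 gene, best known in the oligodendrocyte lineage, and hGFAPCre from a human GFAP promoter that is active in neural progenitors and glia. Gsα is the product of Gnas and stimulates adenylyl cyclase. The series' title places the study in medulloblastoma, and the deposited table of hGFAP-Gnas is named for tumors, so a knockout cerebellum can hold tumor tissue. Nothing in the labels says whether the Ctrl mice carried a Cre or a floxed allele, and replicates are listed only as separate samples of a group.

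A synaptic vesicle is filled with transmitter, docks at the active zone of the presynaptic terminal, and is primed there for fusion. Fusion is driven by the SNARE proteins syntaxin-1 and SNAP-25 on the plasma membrane and VAMP (synaptobrevin) on the vesicle. It is triggered when calcium binds synaptotagmin and is held in check by complexin. Large scaffolds such as Bassoon, Piccolo and the RIM proteins mark the release site, and Munc13 proteins prime the vesicle. In the cerebellum this machinery serves granule cell synapses on Purkinje cells and interneurons, Purkinje cell synapses in the deep nuclei, and the mossy and climbing fibers that enter from outside.

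Levels are FPKM, fragment counts scaled to transcript length and to the mapped fragments of the library. Folds are differences of log2(FPKM + 1) with their SE, tested with limma over all genes, and a gene is called at a Benjamini-Hochberg adjusted p under 0.05. Relative depth, read from steps among the lowest values, was 0.838 to 1.07 of Ctrl 2 in 10 deeper libraries and 0.268 to 0.429 in the 9 shallower ones, which were Olig1-Gnas 1 to 4, hGFAP-Gnas 5 to 8 and Ctrl 3. The depth in reads is unknown. An exact 0 in such tables can be a failed estimate. Gnas itself was listed at 0 in 3 Olig1-Gnas libraries and at 24 to 121 FPKM in the other 5, at 40.9 FPKM in hGFAP-Gnas 5 and at 0 in the other 7, and at 651, 798 and 0 FPKM in Ctrl 1, 2 and 3 of the Olig1-Gnas table, so the deletion could be read only in part.

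In Olig1-Gnas cerebellum nearly all of the 32 release genes were lower than in Ctrl. The 32 were chosen with earlier results of these data known. Of the 32 genes 30 fell, 1 rose and 1 was not called. The gene that rose was Stx1a, and the gene not called was Syn1. Over all 14183 genes tested, 23.6% were lower and 36.2% higher. The median log2 fold of the 32 genes was -2.41, against 0.22 over all genes tested, and their folds ran between -4.25 and 2.45. In 30 of the 32 genes every Olig1-Gnas library lay below every Ctrl library, and in 1 every one lay above. The share of all genes whose groups separate in this way was not determined, so these counts have no baseline. All 31 calls held whichever single library was left out.

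In hGFAP-Gnas cerebellum 24 of the 32 genes fell, Stx1a rose, and 7 were not called: Syn1, Sv2b, Vamp1, Syt2, Syt11, Cplx2 and Unc13a. Over all 14305 genes tested, 12.8% were lower and 26.1% higher. The median log2 fold of the 32 genes was -1.56, against 0.19 over all genes. Both comparisons use the same 3 Ctrl libraries, so they are not independent of each other. The hGFAP-Gnas calls depended on single libraries. Without Ctrl 1, Ctrl 2 or Ctrl 3 the genes called lower numbered 2, 2 and 4. The adjusted p of the lost calls ran between 0.0504 and 0.172. All 25 genes called with every library in kept the direction of their fold, and Syn1, not called, turned without Ctrl 2. Syn2, Cadps2 and Stx1a were called whichever library was left out. Leaving out hGFAP-Gnas 4, 5 or 6 ended 8 calls each, hGFAP-Gnas 8 ended 7, hGFAP-Gnas 3 ended 3 and hGFAP-Gnas 2 ended 2. Without hGFAP-Gnas 1 no call was lost and 28 genes were lower. Among the deeper libraries alone, 4 hGFAP-Gnas against 2 Ctrl, none of the 32 was called, with a median log2 fold of -1.25, and there limma called 6 of all genes and 2651 had an unadjusted p under 0.05. Among the shallower ones, with the lone Ctrl 3 assumed to vary like the knockouts, 5 were lower, at a median of -1.70.

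Other scalings moved the median of all genes and, apart from Syn1, turned no direction given above. Quantile, upper quartile and common-sum scaling put the median log2 fold of all genes at 0.061, 0.040 and -0.031 in Olig1-Gnas and at -0.007, 0.071 and 0.060 in hGFAP-Gnas, against Ctrl. Of all genes called in Olig1-Gnas, 60.5% were higher as deposited and 51.4, 51.4 and 47.5% under those scalings. For hGFAP-Gnas the share was 67.1% as deposited and 49.8, 60.8 and 57.6%. The 32 genes had medians of -2.72, -2.60 and -2.70 in Olig1-Gnas and -1.74, -1.70 and -1.72 in hGFAP-Gnas, and all calls listed above for the unscaled values remained.

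**Figure D1:**
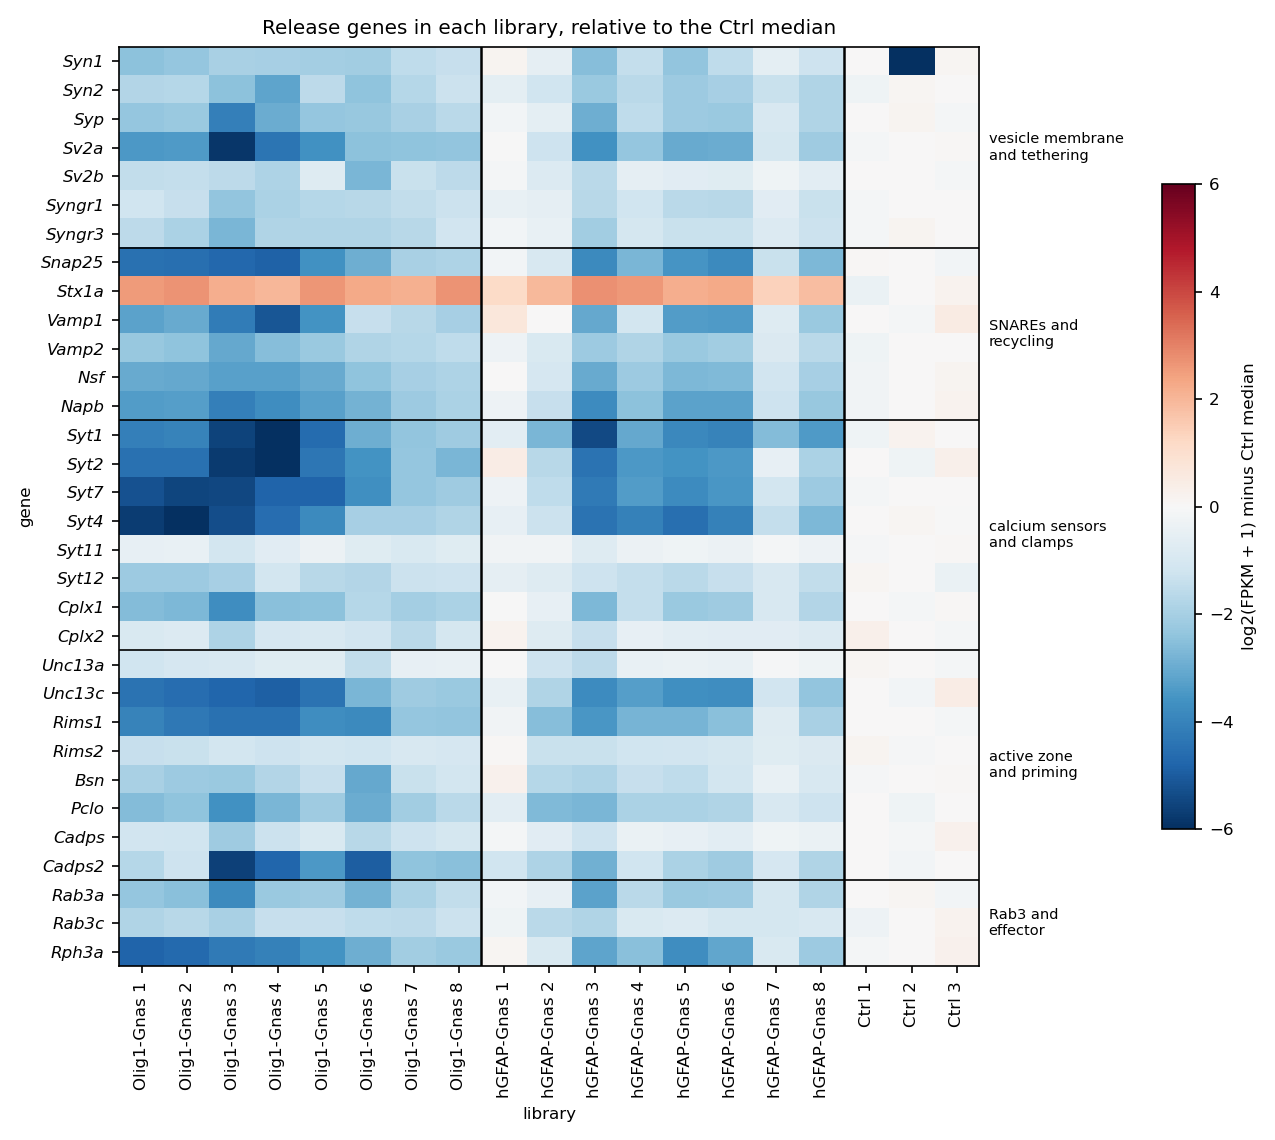
Each row is 1 of the 32 release genes, grouped by role, and each column 1 library, with the knockouts left of Ctrl. Color gives log2(FPKM + 1) minus the gene's Ctrl median, so blue is lower than Ctrl. Stx1a is the row in red in both knockouts, the column of hGFAP-Gnas 1 is close to Ctrl, and Syn1 is dark in Ctrl 2 because it is listed at 0 there.

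The release genes stood at different levels in different libraries of the same knockout. Taking the 31 genes above 0 in every library, the median gene stood at 7.45 to 31.9% of its Ctrl mean in Olig1-Gnas libraries, at 12.9 to 88% in hGFAP-Gnas libraries and at 95.8 to 105% in Ctrl libraries. The lowest library in either knockout was replicate 3: Olig1-Gnas 3 had 16 genes below 10% of the Ctrl mean, and hGFAP-Gnas 3 had 9. The highest were Olig1-Gnas 8 and 7, at 31.9 and 26.9%, and hGFAP-Gnas 1, 7 and 2, at 88, 51.6 and 49.6%. In hGFAP-Gnas 1 only Cadps2 was below 50% of its Ctrl mean, at 43.7%.

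Markers of granule neurons were highest in the libraries of each knockout where these values were highest. The summed FPKM of 9 granule neuron markers was 61.6 to 508 (median 107) in Olig1-Gnas, 106 to 1585 (median 313) in hGFAP-Gnas and 1887 to 2454 in Ctrl, and all 9 were called lower in Olig1-Gnas and 8 in hGFAP-Gnas. The defining gene Gabra6, the GABA-A receptor subunit of granule cells, was listed at 0 in Olig1-Gnas 4 and reached 75.7 FPKM in Olig1-Gnas 7, was 4.48 to 261 FPKM in hGFAP-Gnas and was 224 to 468 FPKM in Ctrl. Sums of 10 Purkinje cell markers were 48.5 to 789 in Olig1-Gnas, 158 to 2081 in hGFAP-Gnas and 2747 to 4172 in Ctrl. Sums of 7 inhibitory interneuron markers were 32.1 to 404, 88.7 to 1026 and 1261 to 1650 in the same order of groups. They followed the release genes less closely, since Olig1-Gnas 1 had the highest sum of its group, 404, at a median release gene of 19.7%, and Olig1-Gnas 7 and 8 had 327 and 379. Of these lists, 9 of 10 and 7 of 7 were called lower in Olig1-Gnas, and 8 of 10 and 7 of 7 in hGFAP-Gnas. The Purkinje list also held 1 gene called higher in hGFAP-Gnas, and 1 stayed so whichever library was left out. Markers of granule progenitors and dividing cells, 8 genes, went the other way, with sums of 921 to 1877 in Olig1-Gnas, 44.6 to 1356 in hGFAP-Gnas and 20.7 to 25 in Ctrl. All 8 were called higher in each knockout. Genes of young neurons summed to 744 to 1619 in Olig1-Gnas, 715 to 1918 in hGFAP-Gnas and 862 to 1097 in Ctrl. Of these 8 genes 3 rose and 1 fell in Olig1-Gnas, and 3 rose and 0 fell in hGFAP-Gnas. As a share of the list, the Olig1-Gnas rises were near the 36.2% of all genes higher there. The fall was below the 23.6% lower. For hGFAP-Gnas the shares over all genes were 26.1% higher and 12.8% lower. In whole tissue, fewer cells of a type and less RNA per cell cannot be told apart. Leaving out 1 Ctrl library brought the lower calls of hGFAP-Gnas to 0 of the granule neuron list, 0 or 1 of the Purkinje list and 2 of the interneuron list. Of 9 genes of neurons in general, 7 fell in Olig1-Gnas and 2 in hGFAP-Gnas, with sums of 173 to 486 in Olig1-Gnas, 256 to 1237 in hGFAP-Gnas and 1249 to 1426 in Ctrl. Those 2 calls were 0 without any 1 Ctrl library or without hGFAP-Gnas 3, 5, 6 or 8, 1 without hGFAP-Gnas 4, 4 without hGFAP-Gnas 1 and 3 without hGFAP-Gnas 7.

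Markers of glia and immune cells differed as well. Sums of 6 oligodendrocyte precursor markers were 137 to 309 FPKM in Olig1-Gnas, 87.8 to 536 in hGFAP-Gnas and 54.9 to 64.6 in Ctrl. Of these, 3 rose in Olig1-Gnas and 5 in hGFAP-Gnas, and 0 fell in either. With single libraries left out, the hGFAP-Gnas rises numbered 2 to 6. Over all genes tested, 36.2% were higher and 23.6% lower in Olig1-Gnas, and 26.1% higher and 12.8% lower in hGFAP-Gnas. Sums of 8 mature oligodendrocyte markers were 22.3 to 294 FPKM in Olig1-Gnas, 154 to 938 in hGFAP-Gnas and 876 to 1112 in Ctrl, and 8 fell in Olig1-Gnas and 2 in hGFAP-Gnas. Sums of 7 Bergmann glia and astrocyte markers were 184 to 1450 FPKM in Olig1-Gnas, 848 to 2949 in hGFAP-Gnas and 2406 to 3195 in Ctrl. Of these, 5 fell and 1 rose in Olig1-Gnas, 3 and 0 without Ctrl 2, and the rise was also lost without Ctrl 1 or Ctrl 3. In hGFAP-Gnas 2 fell and 1 rose. For lists this short, the 3 precursor rises in Olig1-Gnas and the 1 astrocyte rise of each knockout were near or below the shares over all genes. Sums of 7 microglia and macrophage markers were 478 to 1744 FPKM in Olig1-Gnas, 120 to 1056 in hGFAP-Gnas and 57.1 to 86.6 in Ctrl, and 6 rose in Olig1-Gnas and 7 in hGFAP-Gnas, 4 without Ctrl 2. With single libraries left out, the lower calls of hGFAP-Gnas ran between 0 and 4 for each of the mature oligodendrocyte and astrocyte lists. They were 0 or 1 whenever a Ctrl library was left out and 4 without hGFAP-Gnas 1. How far cell makeup sets the level of the release genes was not tested.

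**Figure D2:**
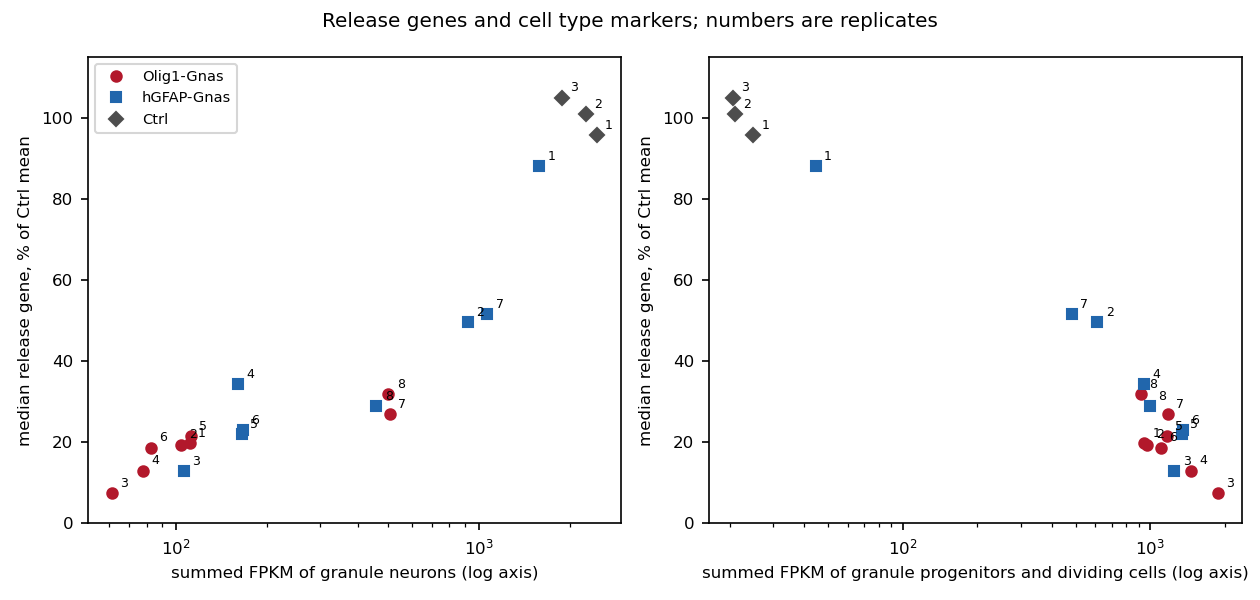
Each point is a library. The vertical axis gives the median of 31 release genes as % of the Ctrl mean, and the horizontal axes, on log scales, give the summed FPKM of granule neuron markers (left) and of granule progenitor and dividing cell markers (right). hGFAP-Gnas 1, with the highest release genes of the knockouts at 88%, also has the highest granule neuron sum (1585) and the lowest progenitor sum (44.6).

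Genes of the vesicle membrane and its tethers fell in 6 of 7 cases in Olig1-Gnas and in 5 of 7 in hGFAP-Gnas. Syp encodes synaptophysin, the abundant membrane protein of the vesicle. It ranged over 24.4 to 139 FPKM (median 86.7) in Olig1-Gnas and 56.3 to 379 (median 137) in hGFAP-Gnas, and was 432, 479 and 401 FPKM in Ctrl. No knockout library reached the lowest Ctrl library, and the log2 fold was -2.49 ± 0.40 in Olig1-Gnas (adjusted p = 2.57e-04) and -1.56 ± 0.50 in hGFAP-Gnas (adjusted p = 0.0322). Sv2a, the vesicle glycoprotein that binds the drug levetiracetam, was the deepest of the group in Olig1-Gnas, at 2.29 to 36.1 FPKM (median 16.7) against 173, 189 and 201 FPKM in Ctrl, a log2 fold of -3.49 ± 0.65 (adjusted p = 7.80e-04). In hGFAP-Gnas it reached 185 FPKM in replicate 1, inside the Ctrl range, with a fold of -2.04 ± 0.65 (adjusted p = 0.0306). Its paralog Sv2b fell less, to 26.7 ± 9.48 FPKM in Olig1-Gnas against 76.2 ± 4.1 FPKM in Ctrl (SD, n = 8 and 3). In hGFAP-Gnas Sv2b had 25 to 71.5 FPKM (median 49.5), just below the 71.6 to 79.4 FPKM of Ctrl, and was not called (log2 fold -0.64 ± 0.25, adjusted p = 0.0639). It was called there without hGFAP-Gnas 1 or hGFAP-Gnas 3, and with signal of the Y-linked gene Ddx3y as a term in the fit.

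Synapsins tether vesicles to the cytoskeleton and to each other. Syn2 held 30 ± 11.4 FPKM in Olig1-Gnas and 39.6 ± 17.3 FPKM in hGFAP-Gnas, against 112 ± 15.6 FPKM in Ctrl (SD, n = 8, 8 and 3), with log2 folds of -1.96 ± 0.34 (adjusted p = 3.79e-04) and -1.57 ± 0.31 (adjusted p = 0.00833). Syn1 was 14.3, 16, 20.8, 20.3, 19.3, 18.7, 28.6 and 31.3 FPKM in Olig1-Gnas 1 to 8, and 94.9, 56.7, 13.2, 30.5, 15.3, 28.1, 56 and 34.5 FPKM in hGFAP-Gnas 1 to 8. In Ctrl 1 and 3 it was 83.7 and 91.7 FPKM, and in Ctrl 2 it is listed at 0. All Olig1-Gnas values lie below the Ctrl values above 0, and hGFAP-Gnas 1 lies above them. With the 0 as listed, the log2 fold was 0.12 ± 1.14 in Olig1-Gnas (adjusted p = 0.937) and 0.83 ± 1.18 in hGFAP-Gnas (adjusted p = 0.585). With the 0 as missing, and Ctrl 1 and 3 as the Ctrl libraries, it was -2.04 ± 0.25 (adjusted p = 4.43e-05) in Olig1-Gnas and -1.32 ± 0.61 (adjusted p = 0.101) in hGFAP-Gnas. The synaptogyrins Syngr1 and Syngr3, 4-pass membrane proteins of the vesicle, fell to 33.7 and 27.8% of the Ctrl mean in Olig1-Gnas and to 48.7 and 49.2% in hGFAP-Gnas. In the hGFAP-Gnas group, leaving out single libraries put the adjusted p as high as 0.104 for Syp, 0.0924 for Sv2a, 0.0661 for Syngr1 and 0.0964 for Syngr3, each without Ctrl 2, and 0.0493 for Syn2. Leaving out Ctrl 1 or 3 also ended those 4 calls, as did hGFAP-Gnas 4, 5 or 6 for Syp and Sv2a and hGFAP-Gnas 8 for Syp.

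Of the fusion SNAREs and the proteins that recycle them, 5 of 6 fell and 1 rose in Olig1-Gnas, and 4 fell and 1 rose in hGFAP-Gnas. Snap25 had the highest level of the 32 genes in Ctrl, at 1752, 1686 and 1525 FPKM, whereas it was 57.4 to 464 FPKM (median 106) in Olig1-Gnas and 117 to 1507 (median 258) in hGFAP-Gnas. Every knockout library lay below Ctrl, hGFAP-Gnas 1 by little. The log2 fold was -3.58 ± 0.67 (adjusted p = 8.83e-04) in Olig1-Gnas and -2.35 ± 0.76 (adjusted p = 0.0322) in hGFAP-Gnas. Vamp2, the main vesicle SNARE, fell to 97.5 ± 32.6 FPKM in Olig1-Gnas and 169 ± 92.7 FPKM in hGFAP-Gnas, against 407 ± 41.5 FPKM in Ctrl. Vamp1 was 2.38 to 43.7 FPKM (median 12.5) in Olig1-Gnas, 9.97 to 184 (median 38.4) in hGFAP-Gnas and 116, 108 and 166 FPKM in Ctrl. It fell in Olig1-Gnas (-3.15 ± 0.71, adjusted p = 0.00279) and was not called in hGFAP-Gnas (-1.80 ± 0.85, adjusted p = 0.106), where replicate 1 stood above the Ctrl range and replicate 2 inside it. Without hGFAP-Gnas 1 it was called lower there. Nsf, the ATPase that pulls used SNARE complexes apart, and Napb, its neuronal adaptor beta-SNAP, fell to 15.9 and 12.8% of the Ctrl mean in Olig1-Gnas and to 36.0 and 28.1% in hGFAP-Gnas. The hGFAP-Gnas calls of Snap25, Vamp2, Nsf and Napb were lost without Ctrl 1, Ctrl 2 or Ctrl 3, with adjusted p up to 0.0994, 0.0778, 0.0914 and 0.0751. That of Snap25 was also lost without hGFAP-Gnas 4, 5, 6 or 8.

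Stx1a, which encodes syntaxin-1A of the plasma membrane, went against the rest. The files place it at chr5:135499441-135526969 of mm9. It was 16.3, 17.7, 12.3, 10.4, 17.2, 13, 11.8 and 17.6 FPKM in Olig1-Gnas 1 to 8, 5.43, 10.1, 18.3, 16.5, 12.2, 13, 6.66 and 9.65 FPKM in hGFAP-Gnas 1 to 8, and 1.24, 1.91 and 2.33 FPKM in Ctrl 1 to 3. Every knockout library lay above every Ctrl library. The log2 fold was 2.45 ± 0.20 in Olig1-Gnas (adjusted p = 9.67e-07) and 2.07 ± 0.32 in hGFAP-Gnas (adjusted p = 0.00584), and the call held whichever library was left out, at an adjusted p of up to 1.50e-05 and 0.0475. A two-sided exact permutation test over libraries gave p = 0.0121 in each comparison, the smallest its 165 arrangements allow. In hGFAP-Gnas, replicates 1 and 7, highest in median release gene, had the lowest Stx1a of the group, whereas in Olig1-Gnas replicate 8, highest in median release gene, was next to the highest in Stx1a. The promoter of Stx1a, from 250 bases before to 50 after its start, is shown because it belongs to the gene that rose. It lies at chr5:135023232-135023531 on the plus strand of GRCm38.p6 (RefSeq), and capitals mark TGACG, the core of the cAMP response element.
Stx1a: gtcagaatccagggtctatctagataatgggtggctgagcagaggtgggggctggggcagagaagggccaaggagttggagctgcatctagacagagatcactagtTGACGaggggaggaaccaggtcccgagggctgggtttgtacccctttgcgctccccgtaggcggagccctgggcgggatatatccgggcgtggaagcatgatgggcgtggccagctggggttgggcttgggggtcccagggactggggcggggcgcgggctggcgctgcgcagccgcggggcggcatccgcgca
This core was in 6 of the 34 promoter windows that RefSeq gave for 25 of the 32 genes and in 20.8% of all 32851 mouse windows, on either strand. The whole element TGACGTCA, which contains it, was in 1 of the 34, that of Syn1, and in 1.79% of all.

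**Figure D3:**
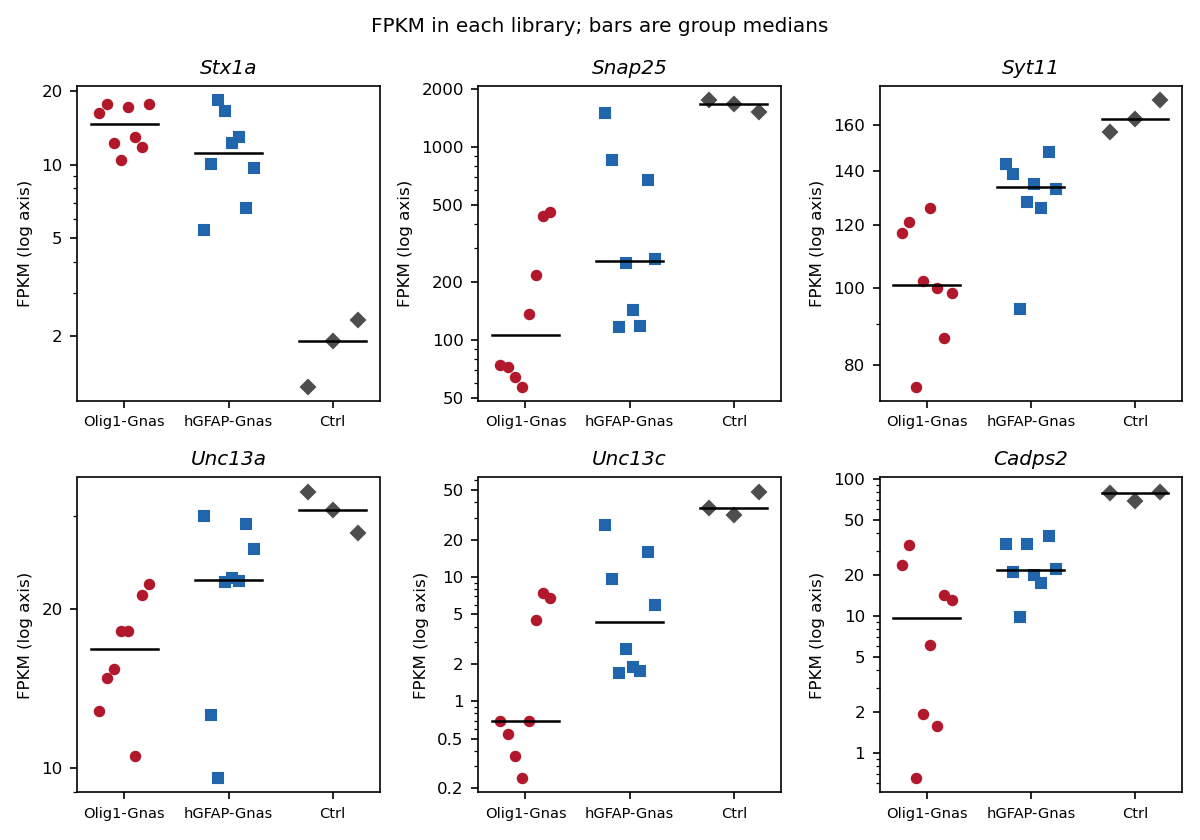
FPKM of 6 release genes in each library, on log axes, with the knockouts left of Ctrl and a bar at each group's median. Stx1a lies above Ctrl in all 16 knockout libraries, Syt11 and Unc13a are the shallowest falls, and Snap25, Unc13c and Cadps2 vary most among libraries of a knockout.

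The calcium sensors and clamps held the deepest falls. All 8 fell in Olig1-Gnas and 5 of 8 in hGFAP-Gnas. Syt1 and Syt2 encode the fast sensors of synchronous release. Syt1 was 1.11 to 35.1 FPKM (median 8.39) in Olig1-Gnas, 2.64 to 99.8 (median 15.6) in hGFAP-Gnas and 132, 178 and 156 FPKM in Ctrl. No knockout library reached Ctrl, and the log2 fold was -3.97 ± 0.81 in Olig1-Gnas (adjusted p = 0.00155) and -3.20 ± 0.74 in hGFAP-Gnas (adjusted p = 0.0115). Syt2 was 0.439 to 20.6 FPKM (median 4.21) in Olig1-Gnas, 4.08 to 149 (median 18.9) in hGFAP-Gnas and 108, 89.8 and 133 FPKM in Ctrl. It had the lowest fold of the 32 in Olig1-Gnas, -4.25 ± 0.73 (adjusted p = 4.75e-04), and in hGFAP-Gnas, where replicate 1 stood above all Ctrl libraries, it was not called (-2.32 ± 0.91, adjusted p = 0.0606). Without hGFAP-Gnas 1 or hGFAP-Gnas 7, or with the Y-linked signal as a term, Syt2 was called lower. Syt7, a slower sensor of asynchronous release, was 0.624 to 16.3 FPKM (median 1.69) in Olig1-Gnas and 3.02 to 58.9 (median 11.1) in hGFAP-Gnas, against 69 to 76.5 FPKM in Ctrl. Syt4, which does not trigger fast release, was 0.772 to 30.5 FPKM (median 5.31), 3.82 to 79.2 (median 10.9) and 109 to 118 FPKM in the same order of groups. Both fell in both knockouts, by 4.23 and 3.92 on the log2 scale in Olig1-Gnas and by 2.48 and 2.90 in hGFAP-Gnas.

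Syt11, a synaptotagmin that does not bind calcium, was the shallowest of the falls. It was 75.1 to 126 FPKM (median 101) in Olig1-Gnas, 94.1 to 148 (median 134) in hGFAP-Gnas and 157, 163 and 172 FPKM in Ctrl. Although all 16 knockout libraries lay below Ctrl, the log2 fold was -0.68 ± 0.15 in Olig1-Gnas (adjusted p = 0.00204) and -0.34 ± 0.16 in hGFAP-Gnas, which was not called (adjusted p = 0.103). After rescaling to a common sum Syt11 was called lower in hGFAP-Gnas. Syt12, another form that does not bind calcium, fell to 33.0% of the Ctrl mean in Olig1-Gnas and 46.8% in hGFAP-Gnas. As FPKM is per length, levels of paralogs can be set side by side: Syt11 made up 44.7 to 84.4% of the summed FPKM of the 6 synaptotagmins in Olig1-Gnas, 25.6 to 77.6% in hGFAP-Gnas and 24.6 to 25.4% in Ctrl. The complexins clamp and then promote fusion. Cplx1 fell to 69.3 ± 26.1 FPKM in Olig1-Gnas and 155 ± 102 FPKM in hGFAP-Gnas, against 356 ± 18.7 FPKM in Ctrl. Cplx2 fell to 101 ± 23.2 FPKM in Olig1-Gnas (-1.24 ± 0.22, adjusted p = 4.27e-04). In hGFAP-Gnas Cplx2 was 83.9 to 256 FPKM (median 138), overlapping the 205 to 278 FPKM of Ctrl, and was not called (-0.73 ± 0.27, adjusted p = 0.0512). Cplx2 was called there without hGFAP-Gnas 1, after rescaling and with limma's trend and robust options off. The same held with the Y-linked signal as a term and with all 19 libraries in one fit. Among the shallower libraries alone the Olig1-Gnas calls of Syt11, Syt12 and Cplx2 were lost, at adjusted p of 0.0996, 0.057 and 0.109. The hGFAP-Gnas calls among these genes all depended on a Ctrl library: those of Syt7, Syt4 and Cplx1 were lost without any 1 of the 3 and those of Syt1 and Syt12 without Ctrl 1 or 2, at adjusted p up to 0.0862, 0.0826, 0.11, 0.0543 and 0.0539. That of Cplx1 was also lost without hGFAP-Gnas 3, 4, 5, 6 or 8.

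At the active zone all 8 genes fell in Olig1-Gnas and 7 of 8 in hGFAP-Gnas. The Munc13 pair, which the files place at chr9:73327230-73781374 (Unc13c) and chr8:74150611-74195656 (Unc13a) of mm9, had unequal folds. Unc13c, the Munc13-3 gene known for its expression in the cerebellum, was 0.242 to 7.38 FPKM (median 0.701) in Olig1-Gnas, 1.69 to 26.2 (median 4.31) in hGFAP-Gnas and 35.6, 31.5 and 48.4 FPKM in Ctrl. No knockout library reached Ctrl, and the log2 fold was -3.85 ± 0.64 in Olig1-Gnas (adjusted p = 2.94e-04) and -2.61 ± 0.70 in hGFAP-Gnas (adjusted p = 0.0177). Unc13a, the Munc13-1 gene used at most excitatory synapses of the forebrain, was 10.5 to 22.3 FPKM (median 16.8) in Olig1-Gnas and 9.55 to 30.1 (median 22.8) in hGFAP-Gnas, against 33.4, 30.8 and 27.9 FPKM in Ctrl. Unc13a fell in Olig1-Gnas (-0.87 ± 0.20, adjusted p = 0.00271), where its groups did not overlap, and was not called in hGFAP-Gnas (-0.55 ± 0.31, adjusted p = 0.169), where they did. Among the deeper libraries alone the Olig1-Gnas call of Unc13a was lost (adjusted p = 0.0619). Unc13a made up 69.9 to 98.7% of the pair's summed FPKM in Olig1-Gnas, 53.4 to 92.7% in hGFAP-Gnas and 36.6 to 49.5% in Ctrl, so both knockouts lay above all Ctrl libraries. Both promoters are shown because the genes fell so unequally, at chr8:71671708-71672007 for Unc13a and chr9:73968988-73969287 for Unc13c, both on the minus strand of GRCm38.p6 (RefSeq). Capitals mark TGACG and the segments CAGCACC and GGACAG of RE1, the element bound by the repressor REST, on either strand.
Unc13a: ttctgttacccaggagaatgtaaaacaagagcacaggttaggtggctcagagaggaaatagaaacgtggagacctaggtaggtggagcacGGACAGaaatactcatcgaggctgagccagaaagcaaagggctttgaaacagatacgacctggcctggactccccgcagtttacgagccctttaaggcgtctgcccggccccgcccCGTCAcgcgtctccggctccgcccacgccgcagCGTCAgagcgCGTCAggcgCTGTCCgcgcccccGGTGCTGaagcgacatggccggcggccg
Unc13c: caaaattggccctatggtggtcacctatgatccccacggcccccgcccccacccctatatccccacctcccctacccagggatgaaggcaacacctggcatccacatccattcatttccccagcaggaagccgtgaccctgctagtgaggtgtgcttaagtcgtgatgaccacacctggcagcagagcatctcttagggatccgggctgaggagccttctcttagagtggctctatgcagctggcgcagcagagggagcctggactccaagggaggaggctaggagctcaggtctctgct
Unc13a held both RE1 segments in order with 0 to 12 bases between them, as did 0.113% of all windows, and Unc13c held none of these letters. Singly, CAGCACC and GGACAG were in 7.14 and 22.2% of all windows and in 3 and 10 of the 34 windows of the release genes.

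The RIM proteins link Rab3 on the vesicle to Munc13 and to calcium channels. Rims1 was 1.2 to 8.72 FPKM (median 2.28) in Olig1-Gnas, 3.28 to 41.4 (median 7.41) in hGFAP-Gnas and 44.2 to 48.9 FPKM in Ctrl, with log2 folds of -3.66 ± 0.47 (adjusted p = 4.13e-05) and -2.11 ± 0.60 (adjusted p = 0.021). Rims2 was 10.8 to 14.9 FPKM (median 12.7) in Olig1-Gnas, 11 to 31.3 (median 13.2) in hGFAP-Gnas and 28 to 33.1 FPKM in Ctrl, with folds of -1.19 ± 0.13 (adjusted p = 8.73e-06) and -0.98 ± 0.27 (adjusted p = 0.0186). Rims2 was the steadier of the pair, with nearly one level in all Olig1-Gnas libraries, and its share of the pair was 62.8 to 91.8% in Olig1-Gnas, 38.7 to 77.2% in hGFAP-Gnas and 36.4 to 40.8% in Ctrl. The scaffolds Bsn (Bassoon) and Pclo (Piccolo) fell to 27.4 and 17% of the Ctrl mean in Olig1-Gnas and to 50.9 and 33.3% in hGFAP-Gnas. Cadps and Cadps2 encode the CAPS proteins, which prime dense-core and synaptic vesicles. Cadps fell to 19.6 ± 4.81 FPKM in Olig1-Gnas and 34.7 ± 7.47 FPKM in hGFAP-Gnas, against 51.3 ± 7.49 FPKM in Ctrl. Cadps2, known for its high level in granule cells, was 23.4, 32.7, 0.656, 1.91, 6.18, 1.58, 14.1 and 13 FPKM in Olig1-Gnas 1 to 8 and 9.77 to 38.2 FPKM (median 21.5) in hGFAP-Gnas, against 78.4, 69.3 and 80.4 FPKM in Ctrl. The Olig1-Gnas libraries spread widely, yet all lay below Ctrl (-3.28 ± 0.89, adjusted p = 0.00843), as did those of hGFAP-Gnas (-1.70 ± 0.33, adjusted p = 0.00807). Among the shallower libraries alone the Olig1-Gnas call of Cadps2 was lost (adjusted p = 0.23). For Cadps2 replicates 1 and 2 were the highest of Olig1-Gnas, although replicates 7 and 8 had the highest median over the release genes. Without any 1 of the Ctrl libraries the hGFAP-Gnas calls of Unc13c, Rims1, Rims2, Bsn, Pclo and Cadps were lost, at adjusted p up to 0.0688, 0.0747, 0.0781, 0.115, 0.0623 and 0.172. Those of Bsn and Cadps were also lost without hGFAP-Gnas 2, 4, 5, 6 or 8, and that of Bsn without hGFAP-Gnas 3. With all 19 libraries in one limma fit, the hGFAP-Gnas calls of Cadps and Cadps2 were lost, at adjusted p between 0.0523 and 0.0678.

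Rab3 is the small GTPase of the vesicle, and rabphilin, from Rph3a, is one of its effectors. Rab3a was 25.5 to 134 FPKM (median 76.1) in Olig1-Gnas, 38.7 to 332 (median 114) in hGFAP-Gnas and 372, 398 and 334 FPKM in Ctrl. Rab3c was 9.25 to 15.6 FPKM (median 12.6), 10.4 to 32.5 (median 19.1) and 31.9 to 44.6 FPKM in the same order of groups. Rph3a was the deepest of the 3, at 4.71 to 37.4 FPKM (median 10.6) in Olig1-Gnas, 11.1 to 172 (median 31) in hGFAP-Gnas and 148 to 190 FPKM in Ctrl. All 3 fell in both knockouts, with log2 folds of -2.38 ± 0.37, -1.54 ± 0.16 and -3.61 ± 0.58 in Olig1-Gnas and -1.58 ± 0.54, -1.03 ± 0.28 and -2.10 ± 0.72 in hGFAP-Gnas. The hGFAP-Gnas calls were lost without any 1 of the Ctrl libraries, at adjusted p up to 0.118, 0.0764 and 0.114. Those of Rab3a and Rph3a were also lost without hGFAP-Gnas 4, 5, 6 or 8, and that of Rph3a without hGFAP-Gnas 3.

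**Figure D4:**
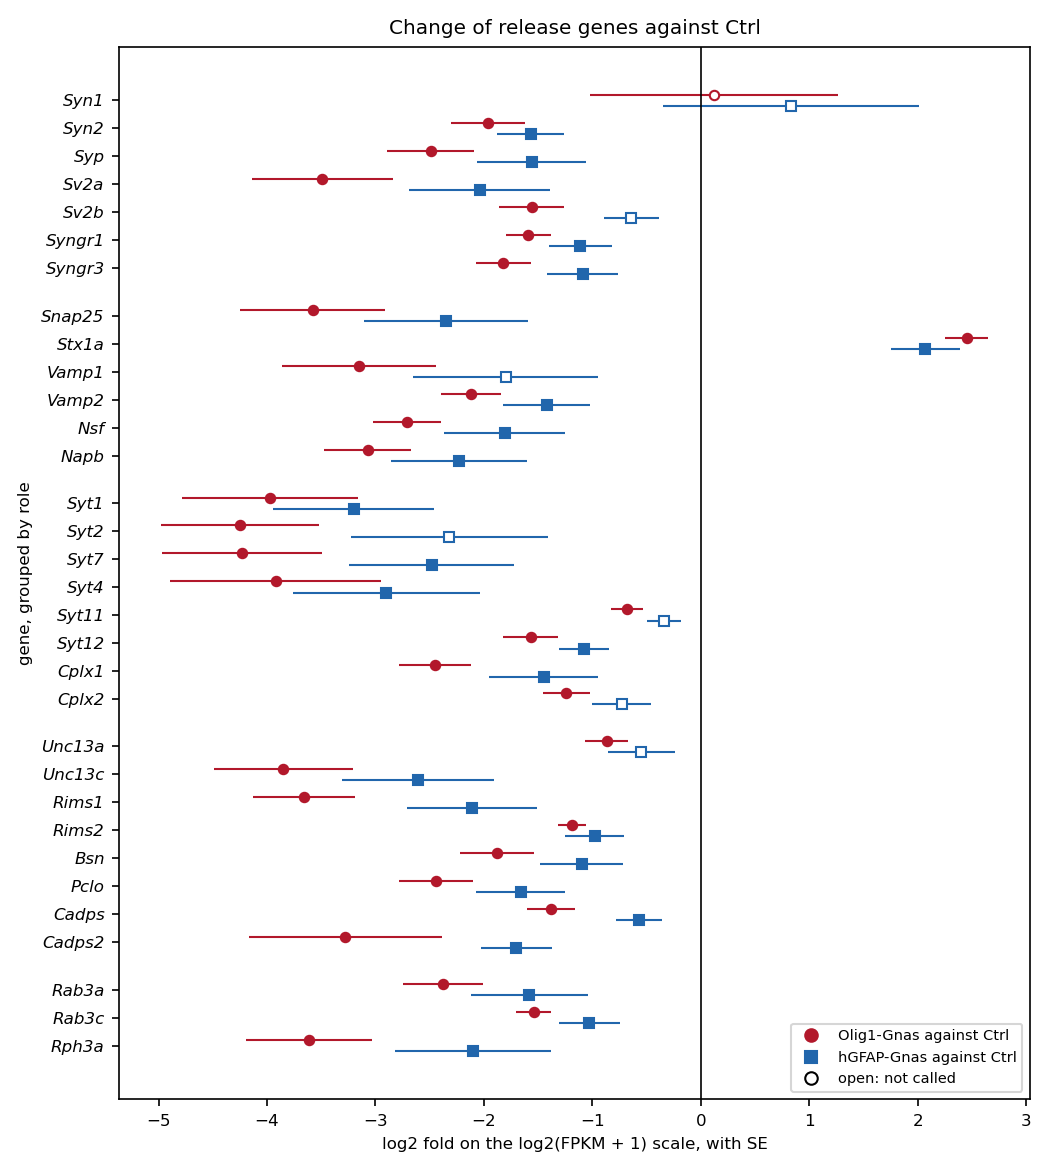
Log2 folds against Ctrl with SE for the 32 genes, grouped by role. Circles are Olig1-Gnas and squares hGFAP-Gnas, and open symbols were not called. Folds run from -4.25 for Syt2 to 2.45 for Stx1a in Olig1-Gnas, and the hGFAP-Gnas fold lies nearer 0 for 31 of the 32 genes.

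Family makeup, described here without a test, differed between groups for several pairs of paralogs and hardly for others. The share of Sv2b in Sv2a and Sv2b was 24.6 to 91.8% (median 62.5%) in Olig1-Gnas, 27.9 to 68.5% (median 56.6%) in hGFAP-Gnas and 26.3 to 30.9% in Ctrl. Cplx2 made up 44.7 to 69.7% of the complexins in Olig1-Gnas, 33.6 to 64.7% in hGFAP-Gnas and 35.5 to 43.7% in Ctrl. Cadps made up 39.2 to 94.2% of the CAPS pair in Olig1-Gnas, 51.7 to 67.8% in hGFAP-Gnas and 38.7 to 42.6% in Ctrl. The synaptogyrins kept nearly one ratio, with Syngr3 at a median of 17.1% in Olig1-Gnas, 20.2% in hGFAP-Gnas and 19.3% in Ctrl.

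**Figure D5:**
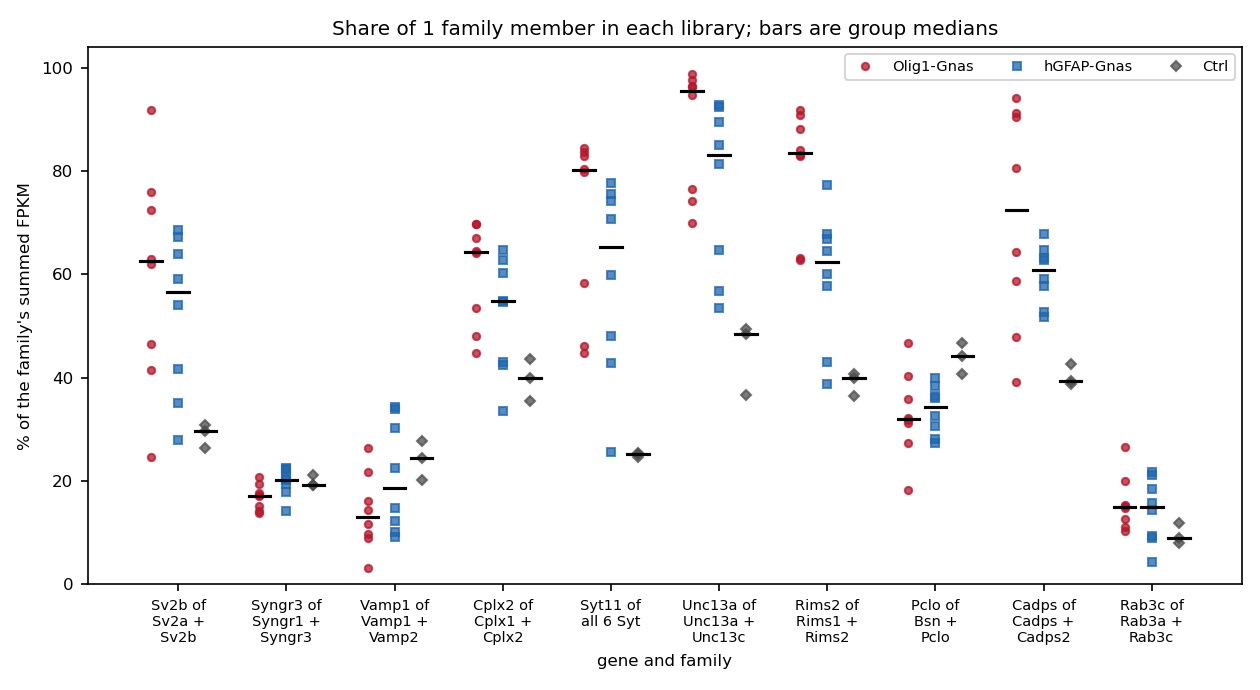
Share of 1 gene in the summed FPKM of its family, in %, for each library, with bars at group medians and the knockouts left of Ctrl. The shares of Syt11 and Unc13a in every Olig1-Gnas library lie above every Ctrl library, and those of Syngr3 overlap.

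Between the knockouts no release gene was called by limma in either direction, at 0.264% lower and 0.146% higher among 14386 genes tested. At an unadjusted limma p under 0.05, 22 of the 32 were lower in Olig1-Gnas than in hGFAP-Gnas and 0 higher. Over all 14386 genes, 3410 had such a p in either direction. The exact permutation test gave p under 0.05 for 19 of the 32. The log2 fold was below 0 for 31 of the 32, with a median of -0.80 against 0.01 over all genes. Cadps came nearest to a call, at 19.6 ± 4.81 FPKM in Olig1-Gnas and 34.7 ± 7.47 FPKM in hGFAP-Gnas (-0.80 ± 0.18, adjusted p = 0.0593). Sv2b followed, at 26.7 ± 9.48 FPKM in Olig1-Gnas and 50.5 ± 14 FPKM in hGFAP-Gnas (-0.92 ± 0.24, adjusted p = 0.092). The groups overlapped for every gene. Signal of the Y-linked gene Ddx3y, at 1 FPKM or more, was seen in 2 Olig1-Gnas libraries of 8, against 7 of the 8 from hGFAP-Gnas, and with it as a term the median of the 32 genes was -0.30. Without hGFAP-Gnas 1 the median was -0.61, and among the deeper libraries alone -0.60.

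Other parts of the release pathway, from lists written with earlier results of these data known, fell less evenly. Of 36 further release genes tested in Olig1-Gnas, 26 fell and 2 rose, with a median log2 fold of -1.27. In hGFAP-Gnas 16 of 38 fell and 2 rose, with a median of -0.75. Rims4, a short RIM protein, fell to 3.9 ± 3.8 FPKM in Olig1-Gnas against 50.5 ± 7.5 FPKM in Ctrl. The calcium channel subunit Cacnb4, the liprin Ppfia4 and the calcium sensor Doc2b also fell there, by 3.48, 3.04 and 3.17 on the log2 scale. In hGFAP-Gnas Rims4, Doc2b and Cacnb4 fell by 2.83, 2.44 and 2.24. The 2 that rose were the same genes in both knockouts. Doc2a, paralog of Doc2b, was 17.4 ± 6.07 FPKM in Olig1-Gnas and 16 ± 6.04 FPKM in hGFAP-Gnas, against 2.44 ± 0.145 FPKM in Ctrl, with log2 folds of 2.36 ± 0.27 (adjusted p = 1.68e-05) and 2.22 ± 0.31 (adjusted p = 0.00474). Syngr2, a synaptogyrin found mostly outside neurons, rose by 1.36 ± 0.35 in Olig1-Gnas (adjusted p = 0.0054) and 1.17 ± 0.27 in hGFAP-Gnas (adjusted p = 0.0113, and up to 0.0565 without Ctrl 1). Leaving out any 1 Ctrl library brought the 16 lower calls in hGFAP-Gnas to 0, and Doc2a stayed called throughout.

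Vesicle endocytosis was mixed. Of 20 genes 9 fell and 7 rose in Olig1-Gnas, and 7 fell and 4 rose in hGFAP-Gnas, with medians of -0.17 and -0.12. As shares of the list, the higher calls were close to the 36.2% of all genes higher in Olig1-Gnas, and they became 4 without Ctrl 1. The neuronal genes Dnm1 and Dnm3 (dynamins), Sh3gl2 (endophilin A1) and Synj1 (synaptojanin) fell in Olig1-Gnas, by 3.79, 3.39, 1.89 and 1.78 on the log2 scale, and Dnm1, Dnm3 and Synj1 in hGFAP-Gnas, by 2.43, 2.11 and 1.17. Sh3gl3 (endophilin A3) rose by 1.39 ± 0.34 in Olig1-Gnas and 1.64 ± 0.25 in hGFAP-Gnas. Bin1 also rose in both, Sh3gl1 and Cltb rose in Olig1-Gnas and Dnm2, the ubiquitous dynamin, in hGFAP-Gnas, by 0.50 to 0.95. The hGFAP-Gnas call of Sh3gl1 (0.41 ± 0.15, adjusted p = 0.0475) held in 1 of 11 fits that each left out a library, at an adjusted p of up to 0.245. Of 13 subunits of the proton pump that powers transmitter filling, 10 fell and 1 rose in Olig1-Gnas, and 8 fell in hGFAP-Gnas. The neuronal subunit Atp6v1g2 fell to 24.3 ± 21.8 FPKM in Olig1-Gnas against 249 ± 17.7 FPKM in Ctrl, and its ubiquitous paralog Atp6v1g1 rose to 118 ± 20 FPKM against 74.6 ± 4.53 FPKM in Ctrl. The subunits Atp6v1a and Atp6v0a1 fell by 1.49 and 1.63 on the log2 scale in Olig1-Gnas and by 1.21 and 1.03 in hGFAP-Gnas. SNAREs of general trafficking summed to 737 to 843 FPKM in Olig1-Gnas, 697 to 925 in hGFAP-Gnas and 712 to 766 in Ctrl. Of the 23 tested, 4 fell and 6 rose in Olig1-Gnas and 3 fell and 5 rose in hGFAP-Gnas. In Olig1-Gnas both shares are below those over all genes, 23.6% lower and 36.2% higher, and in hGFAP-Gnas they are near or below 12.8% and 26.1%. Without Olig1-Gnas 6, 9 rose in Olig1-Gnas. Stx6, of the trans-Golgi network, rose the most, by 1.40 ± 0.17 in Olig1-Gnas and 1.03 ± 0.27 in hGFAP-Gnas, and Napg, the gene of gamma-SNAP, fell by 1.36 and 0.91. Ykt6 and Snap23 also rose in both, by 0.74 to 0.93. Without 1 Ctrl library the hGFAP-Gnas calls in these 3 lists fell to at most 2 lower and 3 higher in each.

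On the receiving side, 12 of 15 postsynaptic scaffold genes fell and 1 rose in Olig1-Gnas, and 8 fell and 2 rose in hGFAP-Gnas, with medians of -2.63 and -1.55. Shank1, Camk2a, Shank2 and Dlg2 fell by 3.82, 3.5, 3.18 and 3.09 on the log2 scale in Olig1-Gnas, and Shank1, Shank2, Dlg2 and Homer3 by 2.39, 2.02, 1.89 and 1.88 in hGFAP-Gnas. Homer2 rose by 1.12 ± 0.34 in Olig1-Gnas, a call lost without Ctrl 1 (adjusted p = 0.067), and by 0.99 ± 0.31 in hGFAP-Gnas, and Dlgap3 rose in hGFAP-Gnas by 0.56 ± 0.20. Of 9 dense-core vesicle cargo genes, 8 fell in Olig1-Gnas and 4 in hGFAP-Gnas. Chromogranins Chgb and Chga were 48.4 ± 20 and 26.2 ± 7.55 FPKM in Olig1-Gnas and 107 ± 80.8 and 44.5 ± 27.6 FPKM in hGFAP-Gnas, against 291 ± 29 and 92.5 ± 7 FPKM in Ctrl. Without 1 Ctrl library, at most 2 of the postsynaptic and 1 of the cargo genes were called lower in hGFAP-Gnas, and none higher.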

How the data were processed

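RNA of 19 cerebellar libraries was sequenced. The authors deposited FPKM per gene in 2 tables of 22193 genes, made with TopHat, Cufflinks and mm9 per the submitters' processing notes, which give no versions. Neither strand nor depth in reads is stated in the sources used here. Ctrl 2 and 3 are identical between the tables and Ctrl 1 differs in 5106 genes. Each knockout was tested within its own table. Between the knockouts, 1 column was taken per library.

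Values were tested as log2(FPKM + 1) with limma 3.58.1 in R 4.3.3 (trend, robust), for genes at 1 FPKM or more in at least 3 libraries, with Benjamini-Hochberg adjustment over all of them. A fold on this scale understates changes of low genes. The method was tested on simulated data with 200 changed genes and noise independent between genes. In these data far more genes were called, so that test cannot show how the method behaves here. Two-sided exact permutation tests used SciPy 1.17.1. P-values measure the spread between these libraries, and no label says whether they are separate animals. Some pairs were much alike. The median absolute log2 difference over 8819 genes was 0.088 for Ctrl 1 and 2, where other pairs reached 0.189. It was 0.108 for Olig1-Gnas 1 and 2 (others up to 0.509) and 0.113 for hGFAP-Gnas 5 and 6 (others up to 0.801). Whether such pairs are independent was not tested. All members are described. Genes of the other pathway lists were named from the up to 4 largest called folds per list and comparison and the up to 4 called against the direction of most of the list. Promoter sequences came from RefSeq (GRCm38.p6), which matched 25 of the 32 genes. Snap25, Vamp2, Syt4, Syt7, Syt12, Syngr3 and Rims2 were not matched. Members and lists were chosen with earlier results of these data known. Alternatives covered thresholds, the offset, filters, scaling, zeros as missing, depth class, Y-linked signal, a replicate block and leaving out each library. Leaving out libraries for list counts was added after the data were seen.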

Additional observations from a re-analysis of the deposited data

Results flagged for a closer look

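Of 64 groups of 8 libraries searched, 3 held a library far from the other 7 by Dixon's ratio at a critical value of 0.526. Chance flags about 1 in 20 groups. Syngr3 was 5.56 FPKM in Olig1-Gnas 3, against 10.8 to 18.8 FPKM in the other Olig1-Gnas libraries (ratio 0.535), and that library also had the lowest median over the release genes. Syt11 was 94.1 FPKM in hGFAP-Gnas 3, against 126 to 148 FPKM in the other hGFAP-Gnas libraries (ratio 0.646), and that library was likewise the lowest of its group. Rims2 was 31.3 FPKM in hGFAP-Gnas 1, against 11 to 17.5 FPKM in the other hGFAP-Gnas libraries (ratio 0.563), and hGFAP-Gnas 1 had the highest median of the knockouts.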

How the results depend on the processing

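The Olig1-Gnas counts, 30 lower and 1 higher, stayed within 1.5 times under every alternative that kept more than 1 Ctrl library. With single libraries left out, 30 to 31 were lower. Among the shallower Olig1-Gnas libraries, set against the lone Ctrl 3, the median log2 fold of the members tested was -2.58. Syt7 and Unc13c did not pass the filter there and were not tested, and Syn1 turned negative. In hGFAP-Gnas the 24 lower became 3 at an adjusted p under 0.01, 5 among the shallower libraries alone, 0 among the deeper alone, and 2 to 28 with single libraries left out. The 1 higher became 0 among the deeper alone. The deviations of same-numbered samples from the means of their groups correlated at -0.17 to 0.25. Samples of unlike number were not compared, so whether the numbers pair libraries was not tested. Only replicates 1 to 3 have a Ctrl library of the same number, so a fit against Ctrl with a replicate block rests on these. With a replicate block the Olig1-Gnas call of Cadps2 was lost (adjusted p = 0.104), and the hGFAP-Gnas counts were 0 lower and 0 higher, with limma calling 0 of all genes and 2654 at an unadjusted p under 0.05. Between the knockouts, the 0 lower became 1 after rescaling to a common sum, with zeros as missing, with the replicate block and with depth class as a term (Cadps each time), 1 among the shallower libraries alone (Sv2b), 2 with all 19 libraries in one fit, and 0 to 2 with single libraries left out, 2 without hGFAP-Gnas 3. The cause was not tested.

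Syn1 turned from its positive fold in Olig1-Gnas to -0.06 (quantile), -0.03 (upper quartile), -0.15 (replicate block), -0.21 (Y-linked term), -2.31 (shallower alone) and -2.04 with the 0 of Ctrl 2 missing or Ctrl 2 left out, where leaving out single libraries gave -2.04 to 1.23. In hGFAP-Gnas Syn1 turned to -1.57 (shallower alone) and -1.32 without that 0, with a leave-one-out range of -1.32 to 1.94. The 0 lies in Ctrl 2 alone. Between the knockouts, the folds of Syn2, Syt1 and Unc13a turned to 0.08, 0.14 and 0.10 with the Y-linked term, and those of Syt4 and Unc13a to 0.16 and 0.03 among the deeper libraries alone. Depth in reads is unknown, so no counting limit can be set on low values.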
